A study of Mus musculus with 20 samples.

Results

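The data describe 10 genes that remodel or decorate the extracellular matrix: Mmp2, Timp1, Timp2, Timp3, Postn, Tgfbi, Tnc, Sulf1, Cemip and Ptx3. They are 10 of the 18194 genes measured. They were listed by name, several of them chosen by their measured Dex response, because the mean response to dexamethasone (Dex) differed in sign or size between the genotypes on these same arrays. Values of Dex- and Dex+ cells therefore chose the genes, and those values are given as a description with no test. Primitive endoderm, ES cells and sorted mesoderm were not part of that Dex contrast and were tested, though the list was made with earlier results of all arrays known.

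Each gene was read on 20 Affymetrix MOE430v2 arrays as log2 RMA values, 2 arrays for each of 10 groups. Dnmt3a-/-Dnmt3b-/- cells (DKO) lack both de novo DNA methyltransferases and were set against wild type (WT), both on the J1 129sv/Jae background. All cells except those named below carried Gata4GR, a Gata4 protein joined to the hormone-binding part of the glucocorticoid receptor, expressed from the CAG promoter and switched on by Dex. Primitive endoderm (PE) was made directly by giving ES cells 100 nM Dex for 4 days, and ES cells were its undifferentiated source. Flk1(+) cells were mesoderm that was grown on type IV collagen for 4 days, then sorted for Flk1 and PDGFRα. Dex+ and Dex- cells were such mesoderm cultured for 4 further days with 100 nM Dex or without it. There was 1 transgenic clone per genotype, J1G4.2 for WT and 16G4.3 for DKO, so genotype and line cannot be told apart. In the Flk1(+) groups replicate 1 came from the parental lines J1 and 16aabb, which lack the transgene. Biological replicates is the labels' term for both arrays of each group, and independent experiments that of the study's methods. These are bulk samples, in which fewer cells of a type and less RNA per cell cannot be told apart.

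The matrix around cells is laid down and taken apart by a small set of secreted proteins. Matrix metalloproteinases cut matrix proteins, and the tissue inhibitors of metalloproteinases (TIMPs) block them. Matricellular proteins such as periostin and tenascin C sit in the matrix and tune how cells adhere and signal, without being its main scaffold. Sugar polymers are remodelled too: heparan sulfate loses sulfate groups that bind growth factors, and hyaluronan is broken down or stabilised. Mural cells and fibroblasts are known producers of many of these proteins, while primitive endoderm is known for secreting basement membrane.

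On the whole arrays, the deleted genes read below WT in every state. Dnmt3b, for example, was at 8.97 and 8.88 in DKO ES cells, against 13.06 and 12.63 in WT ES cells. The 2 arrays of a group correlated at 0.979 to 0.996. Between the arrays of Flk1(+) cells 698 genes in DKO and 880 in WT were at least 2-fold apart, and their lines differ too. The labelled states were checked against marker genes. The 6 PE markers had median group means of 12.55 in DKO PE and 12.15 in WT PE, against medians of 6.07 for DKO ES and 5.56 for WT ES cells. Kdr, which encodes Flk1, was among 5 mesoderm markers whose median was 12.07 in DKO and 12.36 in WT Flk1(+) cells. Kdr and Pdgfra among them encode the proteins used for the sort, so they are no independent check. In ES cells that median was 6.37 in DKO and 6.31 in WT. In PE it was 6.91 in DKO and 7.06 in WT, but the highest marker mean there was 13.40 in DKO and 13.19 in WT. All ES arrays were scanned on a day of their own, so scan day and cell state cannot be told apart in comparisons with ES cells. Other states shared scan days only in part. All Dex+ arrays were scanned on the same day, while the Dex- arrays of each genotype were split between that day and another. The arrays of DKO and WT cells of a state were scanned in equal numbers on each day.

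**Figure D1:**
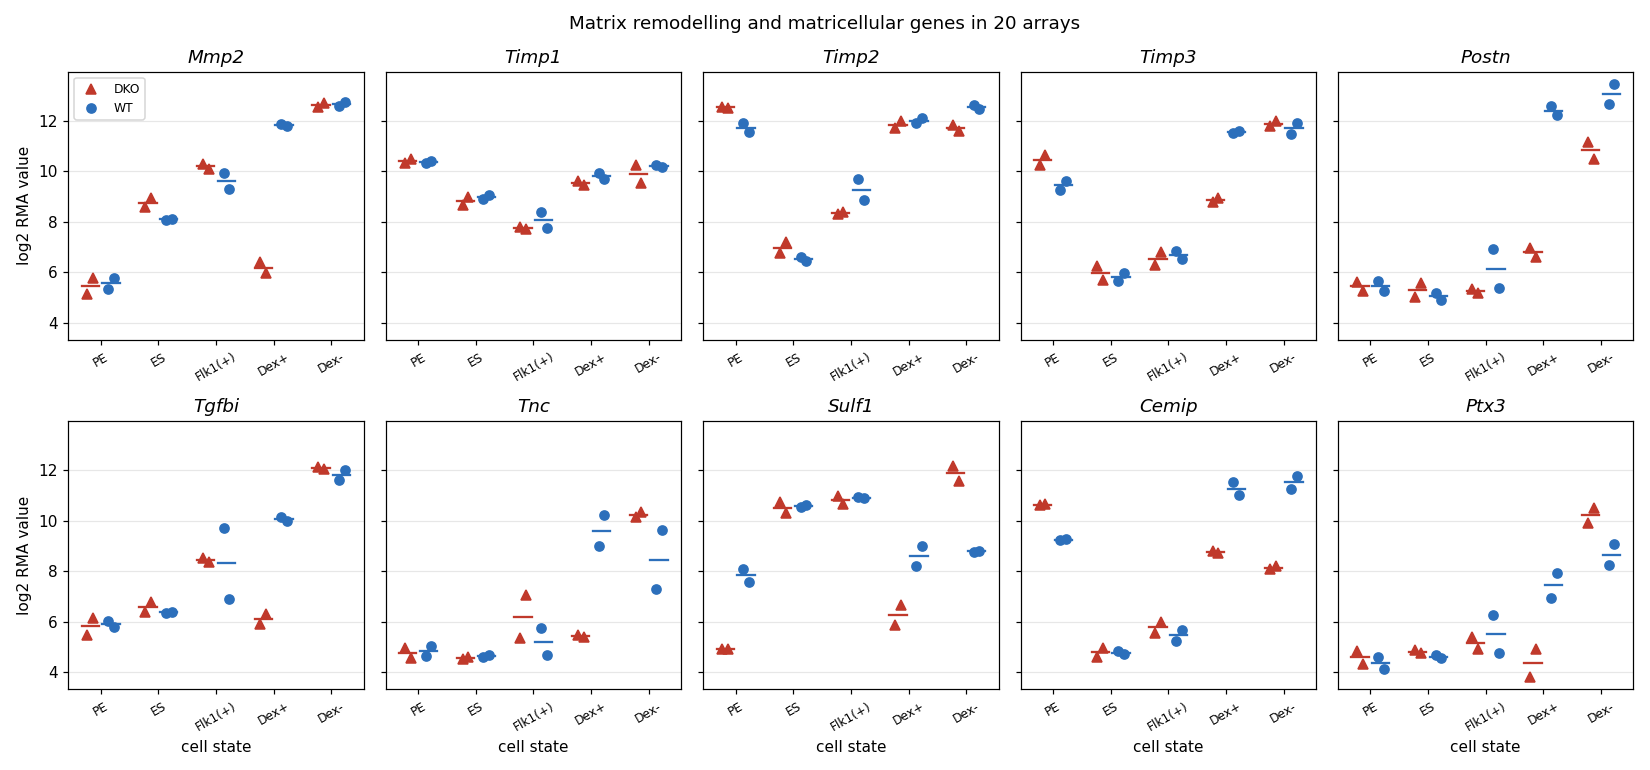
Log2 RMA values (vertical axis) of the 10 genes in PE, ES, Flk1(+), Dex+ and Dex- cells (horizontal axis). Red triangles are DKO arrays, blue circles are WT arrays, and short lines are means of 2 arrays. In Dex+ cells Mmp2 was at 6.39 and 5.98 in DKO and at 11.86 and 11.78 in WT, while Sulf1 in PE was at 4.92 and 4.94 in DKO and at 8.09 and 7.59 in WT.

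In PE against ES cells the inhibitors and Cemip were high and Mmp2 and Sulf1 were low. In each genotype Timp1, Timp2, Timp3 and Cemip rose and Mmp2 and Sulf1 fell, so 6 of the 10 genes passed. A gene passed at a Benjamini-Hochberg adjusted p under 0.05 in limma and a change of at least 2-fold. Of all genes 16.3% passed in DKO PE against DKO ES cells, and 14.2% in WT PE against WT ES cells. The median change of the 10 genes was 0.17 in DKO and 0.31 in WT on the log2 scale, and 0.02 over all genes in both.

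Mmp2, gelatinase A, degrades basement membrane collagen and denatured collagen. DKO PE arrays were at 5.13 and 5.76, against 8.58 and 8.92 in DKO ES arrays. WT PE arrays were at 5.35 and 5.78, against 8.09 and 8.13 in WT ES arrays. The PE arrays lay below the ES arrays in both genotypes, and Mmp2 fell by 3.31 ± 0.24 in DKO (SE of the fit, n = 2 arrays a group, limma adjusted p = 7.17e-08) and by 2.55 ± 0.24 in WT (adjusted p = 1.41e-06). In Flk1(+) cells it rose to 10.31 and 10.09 in DKO and to 9.93 and 9.30 in WT, a change of 1.45 in DKO (adjusted p = 0.000444) and 1.51 in WT (adjusted p = 0.000244) against ES cells. Its other probe set had the same order of the 5 states in each genotype.

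The inhibitor Timp2, which also takes part in the activation of the Mmp2 proenzyme, had one of the widest ranges between PE and ES cells among these genes. Timp2 was at 12.56 and 12.52 in DKO PE, against 6.74 and 7.18 in DKO ES cells. It was at 11.91 and 11.56 in WT PE, against 6.59 and 6.45 in WT ES cells. The arrays of PE and ES cells were far apart, and the rise was 5.57 ± 0.23 in DKO (47.6-fold, adjusted p = 2.95e-10) and 5.21 ± 0.23 in WT (37.1-fold, adjusted p = 9.61e-10). In Flk1(+) cells Timp2 was at 8.30 and 8.37 in DKO and at 9.68 and 8.85 in WT. Against ES cells this was a rise of 1.37 in DKO (adjusted p = 0.000505) and 2.75 in WT (adjusted p = 5.08e-07), but the mean of its 6 probe sets rose by only 0.61 in DKO, under the 2-fold limit.

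Timp3 encodes the inhibitor that stays bound to the matrix. It was at 10.24 and 10.64 in DKO PE, against 6.26 and 5.69 in DKO ES cells. WT PE arrays read 9.28 and 9.63, against 5.65 and 5.96 in WT ES cells. Timp3 thus rose by 4.46 ± 0.23 in DKO (adjusted p = 2.42e-09) and by 3.65 ± 0.23 in WT (adjusted p = 3.45e-08). Timp1, a broadly induced soluble inhibitor, moved less. It was at 10.34 and 10.48 in DKO PE, against 8.66 and 8.98 in DKO ES cells. WT PE read 10.33 and 10.40, against 8.90 and 9.08 in WT ES cells. It rose by 1.59 in DKO PE (adjusted p = 5.59e-05) and 1.38 in WT PE (adjusted p = 0.000246), and in Flk1(+) cells it fell by 1.06 in DKO (adjusted p = 0.00292), but without DKO ES replicate 2 the change was -0.91, under 2-fold. In WT Flk1(+) cells the Timp1 difference from ES cells was -0.92 (adjusted p = 0.00663), under 2-fold.

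Cemip, which encodes a protein needed for the breakdown of hyaluronan, went with the inhibitors. The DKO PE arrays were at 10.61 and 10.65, against 4.60 and 4.97 in DKO ES cells. In WT the PE arrays were at 9.23 and 9.27, against 4.82 and 4.73 in ES cells. The rise was 5.85 ± 0.22 in DKO (adjusted p = 8.65e-11) and 4.47 ± 0.22 in WT (adjusted p = 2.4e-09). The ES values are low readings with no detection call at hand, so background may bound the size of the rise. Both other Cemip probe sets were dim, with means of 5.63 and 4.97 over the 20 arrays against 8.04 for the one used, and their 20 values spanned 5.35 to 5.94 and 4.44 to 5.94.

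Sulf1 encodes an extracellular sulfatase that removes 6-O-sulfates from heparan sulfate. It was at 4.92 and 4.94 in DKO PE, against 10.76 and 10.29 in DKO ES cells. It was at 8.09 and 7.59 in WT PE, against 10.56 and 10.61 in WT ES cells. No PE array reached an ES array, and Sulf1 fell by 5.60 ± 0.29 in DKO (adjusted p = 2.24e-09) and by 2.75 ± 0.29 in WT (adjusted p = 4.25e-06).

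Postn, Tgfbi, Tnc and Ptx3 did not pass between PE and ES cells in either genotype. Postn, periostin, a collagen-binding matricellular protein, stayed between 4.89 and 5.67 in the 8 PE and ES arrays. Tnc, the hexameric glycoprotein tenascin C, lay between 4.54 and 5.05 there, and Ptx3, a pentraxin that helps to hold the hyaluronan matrix together, between 4.12 and 4.88. Tgfbi, a secreted adhesion protein induced by TGF-β, was at 5.48 and 6.14 in DKO PE, against 6.40 and 6.79 in DKO ES cells, a difference of -0.78 that did not pass. In WT the Tgfbi difference was -0.46. The Postn, Tnc and Ptx3 values were low readings with no detection call at hand. For these genes unchanged and undetected RNA cannot be told apart, here or between the genotypes in PE and in ES cells.

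In Flk1(+) against ES cells 4 of the 10 genes passed in DKO (10.2% of all genes did) and 3 of 10 in WT (12.5%). The median change was 0.78 in DKO and 0.88 in WT, against 0.00 and 0.03 over all genes. Beside Mmp2, Timp2 and Timp1, described above, Tgfbi passed in both genotypes. It was at 8.52 and 8.35 in DKO Flk1(+) cells, with a rise of 1.84 ± 0.56 (adjusted p = 0.0297). In WT Flk1(+) cells it was at 9.73 and 6.91, with a rise of 1.95 ± 0.56 (adjusted p = 0.0183). The Tgfbi probe set used is of a kind that can cross-hybridise. Without such probe sets the DKO rise was 0.92 (limma adjusted p = 0.123), under 2-fold. That value came from its dimmest probe set, with a mean of 5.74 over the 20 arrays. The WT arrays were far from each other, the high one being the parental line, which also differed from the other in scan day and array lot, so that these cannot be told apart. Without the parental array the WT change of Tgfbi was 0.54 (adjusted p = 0.167). Leaving out any of the 4 DKO arrays compared left the DKO change of Tgfbi at 1.65 to 2.03 but took its adjusted p to between 0.0765 and 0.16.

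The same parental WT array was high for other matrix genes. Postn was at 6.92 in it and 5.37 in the other WT Flk1(+) array, and Ptx3 was at 6.28 and 4.76. The summed linear signal of 5 fibroblast markers was 1604 in it and 342 in the other WT array, against 506 and 499 in the DKO Flk1(+) arrays. All 5 markers were higher in it, Col3a1 at 7.76 against 4.28 in the other WT array. Their part in the values of Postn, Tgfbi and Ptx3 was not tested.

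The genotypes were then compared within each state, which asks whether loss of Dnmt3a and Dnmt3b goes with another level of these genes. In PE 2 of the 10 genes passed, Sulf1 lower and Cemip higher in DKO, while 1.96% of all genes did. In ES cells none of the 10 passed in limma (1.39% of all genes did), with the smallest p for Mmp2 (0.65, adjusted p = 0.246). In Flk1(+) cells none passed either (0.698% of all genes did), with the smallest p for Timp2 (-0.93, adjusted p = 0.0709). The median differences were 0.01 in PE, 0.18 in ES cells and -0.12 in Flk1(+) cells, against -0.01, 0.00 and -0.03 over all genes.

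Sulf1 in PE differed by -2.91 ± 0.29 (lower in DKO, adjusted p = 2.53e-05), by -3.16 on the first scan day and -2.66 on the second. Its second bright probe set read 5.69 and 5.56 in DKO PE, against 7.83 and 7.83 in WT PE. In ES cells the genotypes overlapped for Sulf1, at 10.76 and 10.29 in DKO and 10.56 and 10.61 in WT. The fall between ES cells and PE was therefore tested against genotype directly, and it was deeper in DKO by -2.85 ± 0.41 (interaction, adjusted p = 0.00163, 1.36% of all genes passing). The DKO PE values are low readings, and background may bound the size of both differences.

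Cemip in PE was higher in DKO by 1.38 ± 0.22 (2.61-fold, adjusted p = 0.00179), with 1.39 on the first scan day and 1.38 on the second. With the mean of its 3 probe sets the difference was 0.51 and did not pass (adjusted p = 0.114). In ES cells the DKO values of 4.60 and 4.97 overlapped the WT values of 4.82 and 4.73. The interaction was 1.37 ± 0.31 (adjusted p = 0.0412). That call was lost when any of the 8 arrays was left out, with changes of 1.18 to 1.56 and adjusted p-values of 0.0507 to 0.19. Timp3 in PE was higher in DKO by 0.98 (adjusted p = 0.0291), just under the 2-fold limit, and Timp2 by 0.80 (adjusted p = 0.0776). For both, the DKO arrays lay above the WT arrays.

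ES cell markers differed in PE as well. All 5 of them read lower in DKO PE, without overlap, with a summed linear signal of 1681 and 1473 in DKO PE and of 4159 and 4199 in WT PE. Pou5f1 was at 7.10 and 6.94 in DKO PE and at 9.34 and 9.45 in WT PE. Sulf1 was high and Cemip low in ES cells, and the part of these markers in the PE differences was not tested.

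In Flk1(+) cells the genotype difference of Timp2 was -0.93 (adjusted p = 0.0709), with arrays that did not overlap. The Flk1(+) to ES difference of the genotypes passed for none of the 10 genes in limma (0.791% of all genes). Its smallest p was that of Timp2 (-1.37, adjusted p = 0.0802). The Flk1(+) genotype difference of Tgfbi turned with the array left out. Without the parental WT array it was 1.52 (adjusted p = 0.00519), and without the other WT array it was -1.30 (adjusted p = 0.0171). Without that other array Postn also passed (-1.67, adjusted p = 0.0185), as did Timp2 (-1.35, adjusted p = 0.0037).

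**Figure D2:**
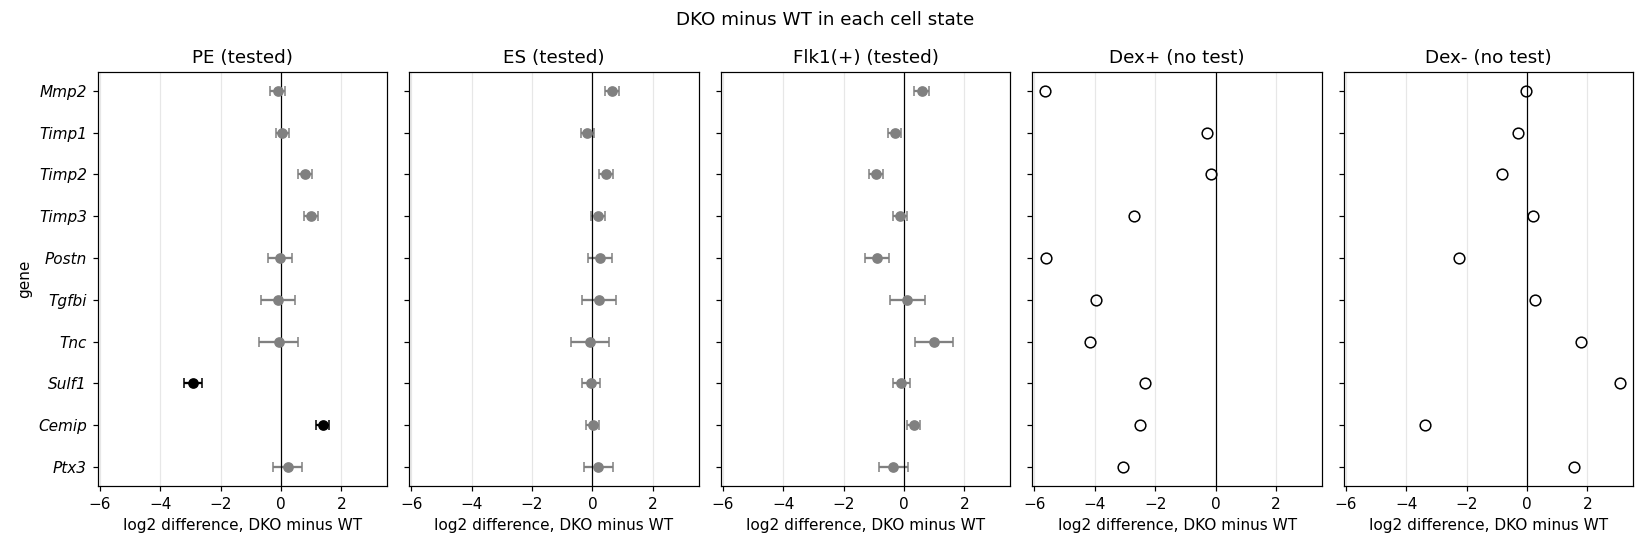
Log2 difference of DKO minus WT (horizontal axis) for the 10 genes (vertical axis), 1 panel per cell state. In PE, ES and Flk1(+) cells points carry the SE of the fit and black points passed the test, which were Sulf1 (-2.91) and Cemip (1.38) in PE. Open circles for Dex+ and Dex- cells have no test, and there Sulf1 was at -2.34 in Dex+ and 3.09 in Dex- cells.

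The genes were next followed into culture. In Dex- against Flk1(+) cells 10 of the 10 genes were at least 2-fold higher in DKO without overlap of the arrays, and 9 of 10 in WT. The same held for 8.41% of all genes in DKO and 7.55% in WT, and the median differences were 3.52 and 3.26, against 0.03 and 0.01 over all genes. These comparisons used arrays that chose the genes, so the counts are a description. The exception was Sulf1, at 12.16 and 11.59 in DKO Dex- cells, against 10.99 and 10.66 in DKO Flk1(+) cells, but at 8.77 and 8.81 in WT Dex- cells, against 10.93 and 10.90 in WT Flk1(+) cells. Without Dex, Sulf1 was thus higher than in mesoderm in DKO and lower in WT.

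In Dex- cells Sulf1 was higher in DKO than in WT by 3.09, Tnc by 1.79 and Ptx3 by 1.56, and Cemip was lower by -3.38 and Postn by -2.24, each at least 2-fold and without overlap. Of all genes 6.57% met this rule. The Tnc difference was 0.72 on the earlier scan day of these arrays and 2.85 on the later. Over the alternatives it spanned 0.63 to 2.95, so it did not stay at least 2-fold throughout. Cemip was at 8.08 and 8.21 in DKO Dex- cells and at 11.28 and 11.77 in WT Dex- cells. Postn was at 11.15 and 10.51 in DKO and at 12.68 and 13.46 in WT. For Mmp2 the genotypes overlapped, at 12.54 and 12.71 in DKO and at 12.60 and 12.75 in WT.

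In DKO Dex+ against Dex- cells 7 of the 10 genes were at least 2-fold lower without overlap and none was higher, while 5.39% of all genes were lower by that rule. In WT 2 of 10 were lower, Tgfbi and Ptx3, and 0.775% of all genes. The median difference was -4.43 in DKO and -0.46 in WT, against 0.01 and 0.00 over all genes. This contrast chose the genes, and nothing is read from these counts.

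Mmp2 was at 6.39 and 5.98 in DKO Dex+ cells, against 12.54 and 12.71 in DKO Dex- cells, a difference of -6.44. In WT it was at 11.86 and 11.78 with Dex, against 12.60 and 12.75 without, a difference of -0.86. The DKO Dex+ arrays were apart from all other cultured arrays and 0.74 above DKO PE.

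The 3 inhibitors differed from one another. Timp3 was at 8.79 and 8.95 in DKO Dex+ cells, against 11.80 and 11.98 in DKO Dex- cells, a difference of -3.02. In WT it was at 11.50 and 11.61 with Dex, against 11.49 and 11.91 without, overlapping. For Timp3 the DKO Dex+ arrays lay below those of DKO PE as well, by a mean of 1.57. Timp2 was at 11.70 and 11.999 in DKO Dex+ cells, against 11.84 and 11.59 in DKO Dex- cells, overlapping with a difference of 0.13. The WT values were 11.90 and 12.13 with Dex, against 12.62 and 12.47 without, a difference of -0.54. Timp1 was at 9.63 and 9.45 in DKO Dex+ cells, against 10.26 and 9.54 in DKO Dex- cells, and at 9.94 and 9.71 in WT Dex+ cells, against 10.24 and 10.18 in WT Dex- cells. It differed by -0.36 in DKO, with overlap, and by -0.39 in WT.

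Among the matricellular genes Postn was at 6.97 and 6.60 in DKO Dex+ cells, against 11.15 and 10.51 in DKO Dex- cells, a difference of -4.04. WT Dex+ cells read 12.59 and 12.21, against 12.68 and 13.46 in WT Dex- cells. The WT values were high with and without Dex, and the DKO Dex+ values were 1.34 above those of DKO PE. Tgfbi was at 5.93 and 6.30 in DKO Dex+ cells, against 12.11 and 12.05 in DKO Dex- cells, and at 10.16 and 10.01 in WT Dex+ cells, against 11.61 and 12.01 in WT Dex- cells. The Tgfbi differences were -5.97 in DKO and -1.73 in WT, and the DKO Dex+ arrays overlapped those of DKO PE.

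Tnc was at 5.49 and 5.39 in DKO Dex+ cells, against 10.15 and 10.35 in DKO Dex- cells. WT cells read 8.99 and 10.21 with Dex, against 7.30 and 9.62 without. The difference was -4.81 in DKO and 1.14 in WT, but the WT arrays overlapped, and on the scan day that held both WT conditions the WT difference was -0.02. Its second probe set was dim, with a mean of 3.75 over the 20 arrays.

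Sulf1 was at 5.87 and 6.66 in DKO Dex+ cells, against 12.16 and 11.59 in DKO Dex- cells, a difference of -5.61. The WT values with Dex, 8.22 and 8.996, overlapped those without, 8.77 and 8.81, with a difference of -0.18. Cemip was at 8.81 and 8.72 in DKO Dex+ cells, against 8.08 and 8.21 in DKO Dex- cells, and at 11.52 and 11.02 in WT Dex+ cells, against 11.28 and 11.77 in WT Dex- cells. The Cemip difference was 0.62 in DKO and -0.26 in WT, and DKO stayed below WT in both conditions. Ptx3 was at 3.81 and 4.93 in DKO Dex+ cells, against 9.92 and 10.53 in DKO Dex- cells, and at 6.95 and 7.95 in WT Dex+ cells, against 8.24 and 9.08 in WT Dex- cells. Its differences were -5.85 in DKO and -1.21 in WT. The other Ptx3 probe set was dim and spanned only 4.04 to 4.79 over the 20 arrays, against 3.81 to 10.53 for the one used.

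The DKO minus WT gap in Dex difference was at least 2-fold and negative without overlap for 7 genes (5.11% of all genes). The signs of the mean Dex difference were opposite in the genotypes for 3 of the 10 genes, Tnc, Cemip and Timp2. For none of these did the arrays separate in opposite directions in both genotypes. For the other 7 both genotypes had the lower mean with Dex.

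**Figure D3:**
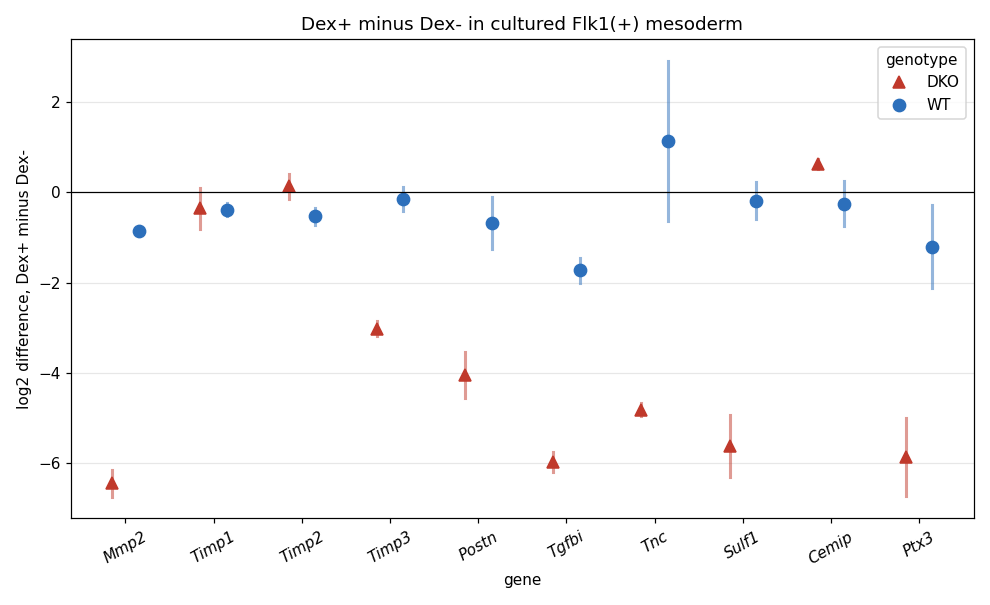
Log2 difference of Dex+ minus Dex- cells (vertical axis) for the 10 genes (horizontal axis). Red triangles are DKO means, blue circles are WT means, and vertical lines span the smallest to the largest difference between single arrays. DKO differences of 7 genes lay between -6.44 and -3.02, and the WT line of Tnc crossed 0.

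Set side by side in Dex+ cells, 8 of the 10 genes were at least 2-fold lower in DKO than in WT without overlap (5.14% of all genes were), all but Timp1 and Timp2. The differences of the 8 lay between -5.64 for Mmp2 and -2.34 for Sulf1. Against PE, WT Dex+ cells were at least 2-fold higher for 7 genes (6.39% of all genes were higher), by up to 6.93 for Postn. DKO Dex+ cells were higher than DKO PE for Postn and Sulf1 (3.09% of all genes) and lower for Cemip and Timp3 (2.01%). DKO Dex+ cells thus lay within 2-fold of DKO PE for the other 6 genes or overlapped it. Among these, both groups gave low readings for Ptx3 (means of 4.37 and 4.58), Tnc (5.44 and 4.76), Tgfbi (6.11 and 5.81) and Mmp2 (6.18 and 5.45). With no detection call at hand, background may bound those differences.

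Cell type markers moved with these values. The 6 PE markers were all higher in DKO Dex+ than in WT Dex+ cells without overlap, with group means of 8.63 to 14.41 in DKO and 7.08 to 13.89 in WT. The 5 fibroblast markers were all lower in DKO Dex+ cells, with a summed linear signal of 1670 and 1303 in DKO, against 22161 and 21936 in WT Dex+ cells. The 5 mural cell markers were all lower too, with a median of 6.87 in DKO and 10.35 in WT. Of 4 endothelial markers all 4 were higher in DKO Dex+ cells, with sums of 4384 and 4699 in DKO, against 2159 and 1616 in WT. Cardiomyocyte sums were 13847 and 11369 in DKO, against 8985 and 5036 in WT, and those of blood markers 769.5 and 868.1, against 187 and 234. Early mesoderm markers summed to 8526 and 8924 in DKO, against 1121 and 1616 in WT. Their median was lower in DKO, at 6.20 against 6.40 in WT. The highest group mean among them was 13.03 in DKO and 9.16 in WT, so the DKO sums came mostly from the brightest marker. The part of these markers in the values of the 10 genes was not tested.

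The order of the states, from high to low, was Dex-, Flk1(+), ES, Dex+ and PE in DKO for Mmp2, Tgfbi and Sulf1, where Dex+ and PE overlapped for Tgfbi and Flk1(+) and ES for Sulf1. In WT it was Dex-, Dex+, Flk1(+), ES and PE for Mmp2, Tgfbi and Ptx3, with ES and PE overlapping for Ptx3. Timp1 had 1 order in both genotypes, PE, Dex-, Dex+, ES and Flk1(+), with Dex- and Dex+ overlapping in DKO. Cemip and Timp2 were highest in PE in DKO and in Dex- cells in WT, and lowest in ES cells in both, with Dex- and Dex+ overlapping for Cemip in WT. Levels of different genes cannot be compared on this scale, and only the order within a gene is given.

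Over the 10 group means the genes fell into a few shapes. Tgfbi and Ptx3 followed each other most closely of all pairs (Pearson r = 0.96), Tgfbi and Mmp2 were at 0.94 and Ptx3 and Tnc at 0.93. Cemip went with Timp2 (r = 0.93) and Timp3 (r = 0.91), and Sulf1 ran against Cemip (r = -0.64). These are descriptions over 10 groups that share arrays, cultures and lines. The Dex- and Dex+ groups among them chose the genes, so likeness between members was partly selected. Among all other named genes, the pattern nearest to Ptx3 was that of Adamts5, an aggrecan-cutting proteinase (r = 0.99), and among the 3 nearest to Postn was Loxl1, a crosslinking enzyme of elastic fibres (r = 0.99). The nearest to Tgfbi was the guidance ligand Slit2 (r = 0.99), to Mmp2 the scaffold gene Dlg3 (r = 0.99), and to Timp2 the lysosomal precursor gene Psap (r = 0.99). Timp1 lay nearest to Crtap, which encodes a protein of collagen prolyl hydroxylation (r = 0.98), and Sulf1 had no neighbour above 0.95.

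The start regions of the closest pair, and of Timp2, whose DKO arrays overlapped with and without Dex, are shown because the compared genotypes differ in DNA methylation enzymes and the transgene supplies a GATA factor. RefSeq promoters were at hand for 8 of the 10 genes, not for Mmp2 and Sulf1. The 3 runs printed hold the 250 bases before the gene's start on GRCm38.p6, 5′ to 3′ on the gene's strand, and capitals mark CpG dinucleotides. Tgfbi lies at chr13:56609336-56609585 on the + strand, Ptx3 at chr3:66219637-66219886 on the + strand, and Timp2 at chr11:118355412-118355661 on the - strand.
Tgfbi: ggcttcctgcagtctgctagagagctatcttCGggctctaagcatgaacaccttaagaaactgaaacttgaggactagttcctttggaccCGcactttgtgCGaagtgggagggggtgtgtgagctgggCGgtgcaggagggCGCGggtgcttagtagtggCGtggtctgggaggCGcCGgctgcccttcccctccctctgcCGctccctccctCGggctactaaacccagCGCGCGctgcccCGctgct
Ptx3: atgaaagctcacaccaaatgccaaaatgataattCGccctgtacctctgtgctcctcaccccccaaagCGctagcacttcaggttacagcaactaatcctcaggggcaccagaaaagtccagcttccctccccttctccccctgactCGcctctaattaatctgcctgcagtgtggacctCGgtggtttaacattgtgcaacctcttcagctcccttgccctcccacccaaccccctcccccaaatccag
Timp2: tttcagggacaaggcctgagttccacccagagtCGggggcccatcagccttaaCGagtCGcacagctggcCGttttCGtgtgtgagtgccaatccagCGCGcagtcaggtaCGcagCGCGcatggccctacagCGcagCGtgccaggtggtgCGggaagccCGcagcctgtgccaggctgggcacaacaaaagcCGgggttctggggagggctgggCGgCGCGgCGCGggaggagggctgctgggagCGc
The Tgfbi run held 15 CpGs, the Ptx3 run 4 and the Timp2 run 21, while the median of 32851 promoters was 6, with quartiles of 2 and 16. The 2 genes with the most similar values thus differed in CpG number, and a link between CpG number and values was not tested. GATA letters were searched on both strands, with either A or T before GATA and either A or G after it. Ptx3 held TGATAA, 224 bases before the start. Tgfbi held AGATAG on the other strand, 226 bases before the start. The 250 bases before the start of Postn, Tnc, Timp1, Timp2 and Timp3 held none, Cemip's entry lay partly inside the gene and is not counted, and 26.5% of all promoters held at least 1. A match is a description of letters and not of binding.

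The other genes of these pathways were taken from lists of 9 families with 146 measured genes, the members left out. In DKO Dex+ against Dex- cells 8 of them rose and 34 fell, while 4.64% of all genes rose and 4.99% fell. In WT 5 rose and 5 fell (1.15% and 0.451% of all genes). The genotypes' responses differed for 28, 5 of them higher and 23 lower in DKO (2.73% and 3.13% of all genes). Marker sums moved in the same DKO contrast, fibroblast markers to 1670 and 1303 in DKO Dex+ cells, against 22932 and 21429 in DKO Dex- cells, and PE markers to 42116 and 45928, against 16538 and 16372. In WT the fibroblast sums were 22161 and 21936 with Dex, against 36852 and 34912 without. Their part in the family changes was not tested. The median change of the 146 genes was -0.11 in DKO and -0.07 in WT, against 0.01 and 0.00 over all genes.

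The ADAM and ADAMTS proteinases had 1 gene that rose and 8 that fell of 23 in DKO. Adamts5 fell by 5.54 ± 0.29 (limma adjusted p = 7.43e-09), at 4.67 and 4.93 in DKO Dex+ cells, against 10.66 and 10.02 in DKO Dex- cells. In WT it fell by 1.15 (adjusted p = 0.0478), a call lost in 6 of 10 alternatives, among them leaving out WT Dex- replicate 1, WT Dex- replicate 2 or WT Dex+ replicate 1 (changes -1.30, -0.99 and -0.78). The responses differed by -4.39, past the threshold in all alternatives run. Adamts4, another aggrecanase, fell by 4.37 in DKO, and Adamts9 rose by 3.76, at 12.94 and 12.81 in DKO Dex+ cells, against 8.98 and 9.24 in DKO Dex- cells. In WT, Adamts9 was high in both conditions, at 11.81 and 11.90 with Dex, against 11.73 and 11.88 without. Of 17 further metalloproteinases Mmp14, the membrane-bound activator of Mmp2, fell by 2.90 in DKO (adjusted p = 6.29e-06) and Mmp11 fell by 1.76, and none passed in WT. Plat, tissue plasminogen activator, rose by 2.54 in DKO (adjusted p = 0.00247), the only gene of 5 in plasminogen activation to pass there.

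Of 28 other matricellular genes 3 rose and 5 fell in DKO. Ccn4 fell by 4.24 ± 0.27 (adjusted p = 5.99e-08), the thrombospondin gene Thbs1 fell by 3.94, and the fibulin gene Fbln2 fell by 3.94. Spock1, a testican proteoglycan, rose by 3.11, at 7.57 and 8.16 in DKO Dex+ cells, against 4.87 and 4.64 in DKO Dex- cells. None of these 4 passed in WT, and the difference between the genotypes passed for each, between -4.67 for Fbln2 and 3.12 for Spock1. Spock1 was also higher in DKO than in WT PE (2.64, adjusted p = 3.87e-06).

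Among 24 genes of heparan sulfate proteoglycans and their enzymes 1 rose and 5 fell in DKO. Hs3st1, a 3-O-sulfotransferase, rose by 4.33 ± 0.21 in DKO (adjusted p = 3.22e-09) and by 1.25 in WT (adjusted p = 0.00341), or 0.99 without WT Dex+ replicate 2, which did not pass. It was at 9.74 and 10.13 in DKO Dex+ cells, against 5.63 and 5.57 in DKO Dex- cells, and its response was larger in DKO by 3.09. The core protein genes Gpc4, Sdc1 and Sdc2 fell by 2.38, 1.60 and 1.59 in DKO. The Sdc1 call was lost without DKO Dex- replicate 1, DKO Dex- replicate 2 or DKO Dex+ replicate 1 (adjusted p = 0.0554, 0.155 and 0.317). Of 26 hyaluronan genes 1 rose and 5 fell in DKO and none passed in WT. Tnfaip6, whose product links hyaluronan to inter-alpha-inhibitor and binds Ptx3, fell by 3.30 (adjusted p = 1.6e-08), the synthase gene Has2 fell by 2.06 and the proteoglycan gene Vcan fell by 1.88, while the receptor gene Hmmr rose by 1.42. Hmmr did not pass without DKO Dex- replicate 2 or DKO Dex+ replicate 1 (adjusted p = 0.0773 and 0.063), and with the mean of all probe sets Vcan was at -0.66, under 2-fold.

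Of 10 collagen crosslinking and processing genes 1 rose and 5 fell in DKO. Loxl1 fell by 3.41, and the lysyl oxidase gene Lox fell by 2.36. Tll1, a tolloid proteinase, fell by 2.27 in DKO (adjusted p = 0.000328) and rose by 1.85 in WT (adjusted p = 0.0106), a rise that did not pass without WT Dex- replicate 1 or WT Dex+ replicate 2 (1.47 and 1.08). It was at 4.08 and 3.80 in DKO Dex+ cells, against 6.31 and 6.11 in DKO Dex- cells, and at 6.93 and 8.47 in WT Dex+ cells, against 5.46 and 6.23 in WT Dex- cells. Of 11 integrin genes 4 fell in DKO, Itga1 by 2.15, Itgb1 by 1.41, Itga8 by 1.10 and Itgb3 by 1.07. Itgb3 rose by 1.38 in WT (adjusted p = 0.0219), and Itga8 fell by 1.35 there (adjusted p = 0.0301). These are the less stable calls. In DKO, Itga8 was lost in 6 of 11 alternatives, every left-out array included, and Itgb3 in 4 of 11, with -0.65 without DKO Dex- replicate 2, -0.95 without DKO Dex+ replicate 1 and -1.19 without DKO Dex+ replicate 2. In WT both were lost in 4 of 11, Itgb3 at 1.13 without WT Dex- replicate 1 and 1.05 without WT Dex+ replicate 2, and Itga8 at -0.97 and -1.05 without the same arrays. With the mean of all probe sets Itgb1 was at -0.63 in DKO, under 2-fold.

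**Figure D4:**
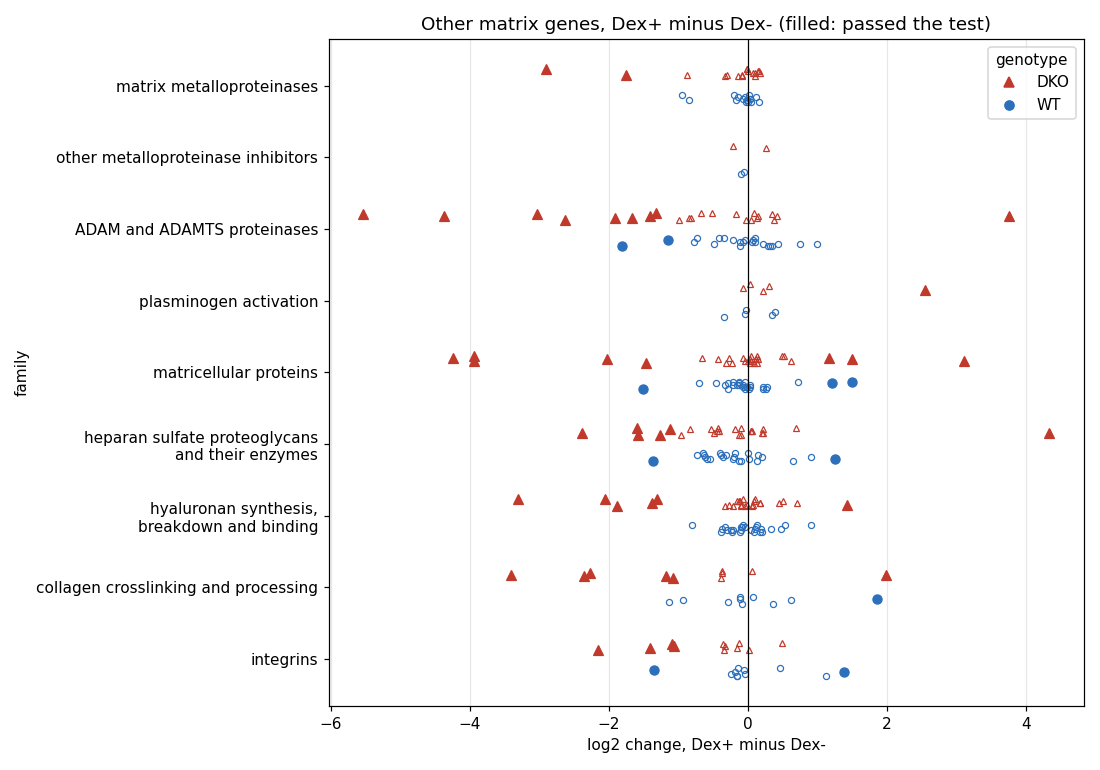
Log2 change of Dex+ against Dex- cells (horizontal axis) of 146 other matrix genes in 9 families (vertical axis), red triangles for DKO and blue circles for WT. Filled points passed the test, 42 in DKO and 10 in WT, and the DKO changes reach from -5.54 for Adamts5 to 4.33 for Hs3st1.

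In the comparisons that did not use the Dex arrays, 34 of the 146 genes passed in DKO PE against DKO ES cells (16.3% of all genes did) and 24 in WT PE against WT ES cells (14.2%). In Flk1(+) against ES cells 30 passed in DKO (10.2%) and 32 in WT (12.5%). Between the genotypes 7 passed in PE (1.96%), 1 in ES cells (1.39%) and 2 in Flk1(+) cells (0.698%). The gene in ES cells was Adamts9 at 1.47, and those in Flk1(+) cells were Adamts20 at 1.46 and Has3 at -1.62, named after their values were seen. The PE to ES difference of the genotypes passed for 3 of the 146 genes (1.36% of all genes) and the Flk1(+) to ES difference for 1 (0.791%), so that the counts of 1 and 2 are near the share over all genes.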

How the data were processed

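RNA of 20 samples (2 labelling cycles) was hybridised to Affymetrix MOE430v2 arrays. The deposited log2 values were made by the authors with RMA, whose version is not given in the sources used here, nor whether all arrays were summarised together. Of 45101 probe sets 64 were controls, 34958 had 1 gene symbol in the platform annotation, 932 several and 9211 none. The brightest probe set of each gene, by its mean over 20 arrays, stood for 18194 genes, of which 9012 had more than 1. Values were used as deposited, with no further normalization.

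A group-means model over all 20 arrays was fitted with limma 3.58.1 in R 4.3.3 (10 residual and 4.54 prior degrees of freedom), with Benjamini-Hochberg adjustment over all genes. The fit was tested on simulated data. A gene passed at an adjusted p under 0.05 and at least 2-fold. With 2 arrays a group, an exact two-sided permutation test cannot go below 0.333. The study names SAM, which was not used here. The members and gene lists were chosen with earlier results of these data known. Members were tested in 9 comparisons without Dex arrays and described in 9 with them. All members are named, and of other families up to 4 genes by the largest change among those that passed in a Dex comparison. Replicate numbers correlated at 0.175 to 0.360 between genotypes of a state, with 2 pairs a comparison, and were not treated as pairs. Array number limits the precision. Alternatives covered probe set choice, filters, centring, blocks, the samples fitted and each left-out array.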

Additional observations from a re-analysis of the deposited data

Results flagged for a closer look

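For 2 of the 10 genes the difference between PE and ES cells itself differed between the genotypes in limma, Sulf1 by -2.85 and Cemip by 1.37 (DKO minus WT, log2). Both are described above with their errors. Other matrix genes were named for changes that passed in a Dex comparison, this difference included, so a count among them is raised by that choice. Of all 146 measured, 5 were higher and 23 lower in DKO (2.73% and 3.13% of all genes). Among the named genes the Dex response differed between the genotypes for 18. It was lower in DKO for the proteinase genes Mmp14 (-1.96), Adamts1 (-2.996), Adamts4 (-3.59) and Adamts5 (-4.39), and for the matricellular genes Ccn4 (-3.54), Fbln2 (-4.67) and Thbs1 (-3.87). It was also lower for the hyaluronan genes Has2 (-2.97), Tnfaip6 (-3.84) and Vcan (-1.496). The same held for the collagen crosslinking and processing genes Lox (-2.07), Loxl1 (-2.48) and Tll1 (-4.12), and for the integrin genes Itga1 (-3.27) and Itgb3 (-2.45). It was higher in DKO for Adamts9 (3.71), Hs3st1 (3.09) and Spock1 (3.12). For some of these genes the genotypes were already apart without Dex. The Dex- means in DKO and WT were 9.11 and 11.80 for Adamts9, 11.69 and 8.37 for Fbln2, and 7.63 and 5.64 for Tnfaip6. With the mean of all probe sets the difference in Dex response did not pass in limma for Mmp14 (-0.99, adjusted p = 0.0821) or Vcan (-0.48, adjusted p = 0.0735). With 2 arrays a group, no test for a single array far from its group was run.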

How the results depend on the processing

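Counts of the 10 genes kept within 1.5 times of the main value in 175 of 194 pairs of a count and a setting. Those of other matrix genes did so in 119 of 153 pairs. Each setting was applied to several counts, and left-out arrays are among the settings. In PE against ES cells 6 genes passed in each genotype whichever array was left out. Between the genotypes in PE, 1 of the 10 genes passed with the mean of all probe sets (Sulf1, not Cemip), and 2 with each array left out. In Flk1(+) cells 1 passed without the 2 parental-line arrays, and 0 to 3 with 1 array left out. For the genotype difference of PE against ES, 1 passed with the mean of all probe sets, without the lowest 40% of genes, in the fit of PE, ES and Flk1(+) arrays alone and with any array left out. For Flk1(+) against ES, 3 to 5 passed in DKO, 3 to 6 in WT and 0 to 3 for their difference with 1 array left out. In WT Dex+ against Dex- cells 1 gene was 2-fold apart without the lowest 40% of genes, and in DKO Dex+ cells against DKO PE 2 were with the mean of all probe sets.

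Of the other matrix genes, between the genotypes 4 passed in PE (fit of the 12 arrays) and 3 to 5 with an array left out, and 2 in ES cells with the mean of probe sets, the replicate block, the scan day block or a trended robust fit (0 to 1 with an array left out). In Flk1(+) cells 0 passed without the lowest 40% of genes or in the fit of 12 arrays, 11 without the parental arrays and 2 to 6 with 1 array left out. The PE to ES genotype difference passed for 6 with the replicate block, 5 after centring and 1 in the fit of 12 arrays (1 to 4 with an array left out). That of Flk1(+) to ES passed for 0 with the mean of probe sets or 12 arrays, 3 with the replicate block, 6 without parental arrays and 0 to 7 with an array left out. In WT, 3 passed for Dex with the mean of probe sets, 4 without the lowest 40% and 6 to 8 with an array left out.

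The Flk1(+) genotype difference of Tgfbi turned with the array left out (1.52 and -1.30). Within a scan day Tnc read -0.02 for WT Dex+ against Dex- and -0.41 for DKO against WT Flk1(+), and Tgfbi read -0.031 for DKO Dex+ against PE. Further changes of sign came from single other probe sets, nearly all dim, and the cause was not tested. Sulf1 read 0.15 for DKO against WT PE, 0.20 for DKO PE against ES, 0.030 for WT PE against ES, 0.17 for their difference, 0.11 for the genotype difference with Dex, 0.089 and -0.020 for DKO against WT in Dex+ and in Dex- cells, -0.027 for DKO Dex- against Flk1(+) and -0.17 for DKO Dex+ against PE. Cemip read -0.0094 for DKO against WT PE, -0.065 for the PE to ES genotype difference, -0.14 for WT Flk1(+) against ES and -9.16e-05 for DKO Dex- against Flk1(+). Timp2 read 0.053 for DKO against WT Flk1(+), 0.017 for the Flk1(+) to ES genotype difference, -0.049 for WT PE against ES, -0.10 for DKO Flk1(+) against ES, and -0.000785 in DKO and -0.0026 in WT for Dex- against Flk1(+). Timp3 read -0.71 for WT Flk1(+) against ES, and Ptx3 -0.076 for DKO against WT Dex- and -0.20 for WT Dex- against Flk1(+). The scan day block could not be fitted for comparisons with ES cells between states. For Dex+ against Dex- cells it was fitted, and there Itga8 did not pass in DKO (-0.96). In WT, Adamts5 (-0.96), Itgb3 (1.16) and Itga8 (-1.21) did not pass with it either.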
